A study of Mus musculus with 24 samples.

Results

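The cholesterol efflux and lipoprotein genes Abca1, Abcg1, Nr1h3, Apoe, Lpl, Pltp, Npc2 and Mylip were followed by RNA-seq in mouse macrophages labelled wild type or Olfml3 knockout, with and without LPS. They were taken by name, as the genes whose symbol in both deposited tables equals 1 of these 8 names, and are 8 of 56691 genes. RAW264.7 is a mouse macrophage-like leukemia line, and BMDMs are bone marrow-derived macrophages, here grown in medium with L929 cell supernatant from the marrow of 8-week-old male C57BL/6 mice. In RAW264.7, Olfml3, which encodes a secreted glycoprotein of the olfactomedin family, was targeted with lentiviral guide RNAs and clones were grown from single cells, but how many clones stand behind the libraries is not given in the sources used here. BMDMs labelled knockout came from Olfml3-/- mice made with CRISPR-Cas9. Cells were given PBS or lipopolysaccharide (LPS), a bacterial glycolipid that activates macrophages through TLR4, at 100 ng/mL for 4 h. The 8 groups were RAW264.7 wild type with PBS, RAW264.7 labelled knockout with PBS, RAW264.7 wild type with LPS, RAW264.7 labelled knockout with LPS, and the same 4 in BMDMs. Each group held 3 libraries, 24 in all. The replicates are named biological in the study's text, but neither that text nor the labels say that they came from separate cultures or animals. The p-values therefore measure only the spread between these libraries, which may be technical.

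Macrophages take up lipoproteins and cell debris and must dispose of the cholesterol, which they cannot degrade. Oxysterols activate LXR, a nuclear receptor that Nr1h3 encodes in its alpha form and that binds DNA with RXR, and LXR raises transcription of the sterol exporters Abca1 and Abcg1, of Apoe, Lpl and Pltp, and of Mylip, a ubiquitin ligase. Activation of macrophages through Toll-like receptors is known to alter this program and the synthesis of sterols under SREBP2.

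The smallest RAW264.7 library held 11638273 counts and the largest 16478616, against 17121240 and 22873094 for BMDMs. Levels are given as deposited FPKM, counts set to a fixed library total and to each kilobase of the gene, which allows genes to be set side by side. Differences are log2 fold changes of FPKM + 0.1 with their standard error (SE) from limma, and on this scale the change of a gene at low level is understated. A gene was called where the Benjamini-Hochberg adjusted p was under 0.05 and the fold change at least 1.5, and "rose" and "fell" are kept for called genes. The fits covered 26740 genes in RAW264.7 and 26973 in BMDMs, and all 8 members entered both. The tables of the 2 cell types were made apart, so nothing was tested between cell types and levels set across them are descriptions. Within a cell type the comparisons share libraries, for instance the wild-type libraries with PBS, so their values stand side by side and do not support each other. Median-ratio scaling, which sets libraries level on the median ratio of their genes instead of on their total, is given beside FPKM wherever it ends a call or turns a direction.

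Olfml3 was examined first, as a check of the labels. BMDM libraries fitted their labels, with Olfml3 at 0.61, 0.53 and 0.65 FPKM in wild type with PBS, 0.03, 0.01 and 0.01 in knockout with PBS, 0.24, 0.25 and 0.25 in wild type with LPS, and 0.01, 0 and 0 in knockout with LPS. RAW264.7 libraries went against theirs. Olfml3 stood at 0.19, 0.15 and 0.15 FPKM in wild type with PBS and at 0.65, 1.01 and 1.19 in the libraries labelled knockout with PBS. With LPS it stood at 0.13, 0.13 and 0.29 FPKM in wild type and at 18.9, 18.8 and 18.3 in the libraries labelled knockout (limma log2 fold change 6.10, adjusted p = 4.51e-07). RAW264.7 libraries are therefore named by their label throughout, those of wild type included, and no direction in them is given as an effect of lost Olfml3. Small insertions or deletions can leave RNA in place, so the level of the RNA does not show whether the protein was made. By the study's text, mutations in the clones were read by Sanger sequencing. For its MCP-1 measurements it describes the knockout cells as single clones with both alleles of Olfml3 knocked out.

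The Y-linked genes Ddx3y, Eif2s3y and Kdm5d held 0 counts in all 6 RAW264.7 libraries labelled knockout, while Eif2s3y reached at most 10.9 FPKM in RAW264.7 wild type and ranged from 13.3 to 16.6 FPKM in BMDMs. The genotype tag in the sample labels went against the title in 12 of 24 libraries, and titles set the groups here. In RAW264.7, replicate 1 labelled knockout with PBS stood apart: its counts differed from replicates 2 and 3 by a chi-square per degree of freedom of 80.3 and 81.1, against 2.28 between those 2. Its mean correlation across genes was 0.964 with its own group and 0.973 with wild type with PBS. For members, calls in comparisons that include its group are given with and without it, while marker sums and values of list genes are given with it. It also entered the shared spread behind the limma p-values of the other RAW264.7 comparisons, which are given with it. In BMDMs, replicate 1 of wild type with LPS differed from replicates 2 and 3 by 10.4 and 8.50 on the same measure, against 4.76 between those 2, but its mean correlation with its own group was like theirs (0.985 for all 3).

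All 7 macrophage markers looked at (Adgre1, Itgam, Csf1r, Cd68, Fcgr1, Cd14 and Lyz2) had counts in every group. Their summed level was 3374 ± 29.2 FPKM (SD, n = 3) in RAW264.7 wild type with PBS and 1247 ± 151 in the libraries labelled knockout with PBS. With LPS it was 3941 ± 67.4 and 1240.2 ± 33.6 FPKM. Lyz2 was the most abundant of them, except in libraries labelled knockout with PBS, where it was Cd68 at 454 FPKM. With PBS, the lower sum came mostly from Lyz2 (2052 against 317 FPKM) and Cd14 (445 against 107 FPKM), while Csf1r (263 against 340 FPKM) and Fcgr1 (18.3 against 22.1 FPKM) stood higher in the libraries labelled knockout. In BMDMs the sums were 15046 ± 216, 17370 ± 686, 12399 ± 158 and 12997 ± 146 FPKM in wild type and knockout with PBS and in wild type and knockout with LPS, led by Lyz2 in each. The 6 dendritic cell markers summed to 1.26, 9.53, 0.727 and 2.83 FPKM in the same order in RAW264.7, led by Siglech (1.12, 9.21, 0.387 and 1.92 FPKM), with Cd209a at 0 in all 4 groups and Flt3 in 3, and to 0.327 to 0.477 FPKM in BMDMs. The 6 fibroblast markers summed to at most 0.173 FPKM in RAW264.7, with 0 to 4 of them at 0, and to at most 1.39 in BMDMs, with none at 0 and Col1a1 or Pdgfrb leading. The 4 adipocyte markers summed to at most 0.18 FPKM and were all at 0 in 4 of 8 groups, and the 8 lymphocyte and NK cell markers summed to at most 0.25 FPKM with at least 4 at 0 in every group. The 6 neutrophil markers summed to at most 0.313 FPKM in RAW264.7, with at least 2 at 0, and to 5.27 to 6.39 FPKM in BMDMs, led by S100a8 with 1 at 0. Fewer cells of a type and less RNA per cell cannot be told apart in these libraries, and the part of these markers in the results was not tested.

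RefSeq promoters on GRCm38.p6, 250 bases before the start of a transcript and 50 from it on, were matched by symbol for 6 of the 8 members, with 9 promoters in all. Lpl and Abcg1 were not matched. Shown here are the 4 matched members that were called in at least 1 comparison of libraries labelled knockout with wild type, from chr4:53159846-53160145 (minus strand, Abca1), chr2:164857659-164857958 (minus strand, Pltp), chr12:84773063-84773362 (minus strand, Npc2) and chr13:45389492-45389791 (plus strand, Mylip). Each is written 5′ to 3′ in the direction of the gene, and capitals mark matches on either strand to a GC box, an E-box or a TATA box, whose letters are given with the positions.
Abca1: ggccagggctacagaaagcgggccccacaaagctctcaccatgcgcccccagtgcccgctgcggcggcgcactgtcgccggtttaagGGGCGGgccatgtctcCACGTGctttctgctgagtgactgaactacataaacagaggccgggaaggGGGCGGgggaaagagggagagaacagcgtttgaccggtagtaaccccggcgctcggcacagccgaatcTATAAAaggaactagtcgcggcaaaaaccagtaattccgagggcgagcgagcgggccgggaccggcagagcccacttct
Pltp: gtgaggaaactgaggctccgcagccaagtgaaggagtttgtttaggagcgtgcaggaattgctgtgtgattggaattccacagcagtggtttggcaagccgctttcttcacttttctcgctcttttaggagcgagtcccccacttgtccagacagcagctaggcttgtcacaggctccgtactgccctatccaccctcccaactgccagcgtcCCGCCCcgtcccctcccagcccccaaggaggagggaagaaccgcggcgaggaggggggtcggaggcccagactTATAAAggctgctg
Npc2: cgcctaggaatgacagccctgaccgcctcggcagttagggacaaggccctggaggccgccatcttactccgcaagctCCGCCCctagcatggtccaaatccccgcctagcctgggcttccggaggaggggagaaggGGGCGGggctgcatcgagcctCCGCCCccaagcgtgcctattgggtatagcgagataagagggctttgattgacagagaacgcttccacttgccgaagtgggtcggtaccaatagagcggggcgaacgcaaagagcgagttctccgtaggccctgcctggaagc
Mylip: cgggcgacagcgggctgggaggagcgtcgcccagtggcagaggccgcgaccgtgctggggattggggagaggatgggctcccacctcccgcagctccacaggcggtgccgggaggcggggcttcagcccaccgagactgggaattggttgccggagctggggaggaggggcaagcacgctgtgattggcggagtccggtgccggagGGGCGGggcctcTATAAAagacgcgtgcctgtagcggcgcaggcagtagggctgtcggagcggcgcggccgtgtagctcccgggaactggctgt
With the first base of the transcript as 0, Abca1 held GGGCGG at -163 and -97, CACGTG at -147 and TATAAA at -29. Pltp held GGGCGG at -37 on the other strand and TATAAA at 36. Npc2 held GGGCGG at -114 and, on the other strand, at -173 and -93. Mylip held GGGCGG at -44 and TATAAA at -32. Of 32851 promoters of 300.0 bases in the same table, 35.7% held GGGCGG on either strand, 7.15% CACGTG and 13.6% TATAAA. The nuclear receptor half-site AGGTCA, held by 16.3% of promoters, and DR4, 2 copies of AGGTCA with 4 bases between them, held by 0.0152%, had no match in the 9 promoters of the members, which says only that these letters are not in these windows. Nr1h3 promoters matched none of the 5 motifs, and 1 of 3 Apoe promoters held TATAAA at -100 on the other strand and at -96, overlapping.

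Gene positions are those of GENCODE vM21 on GRCm38, joined by gene ID. The submitters' processing notes name mm10, but the starts and ends in the deposited tables equal GENCODE vM21 for 1 of 8 members and for 2.76% of 52034 genes, with the same width in 96.8%, so the coordinates behind the counts may differ from those printed. Pltp shares 495 exon bases with Ctsa on the opposite strand, and whether counting used strand is not given in the sources used here, so reads of the 2 genes cannot be told apart there. Nr1h3 shares 34 exon bases with Gm13783 on the same strand, which reached at most 1.56 FPKM in RAW264.7 and 0.3 FPKM in BMDMs.

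The exporters were examined first. Abca1 (ENSMUSG00000015243, chr4:53030787-53159895, minus strand, up to 50 exons in a transcript) encodes the membrane transporter that passes cholesterol and phospholipid to lipid-poor apolipoprotein A-I. In RAW264.7, Abca1 stood at 0.09, 0.17 and 0.13 FPKM in wild type with PBS (replicates 1, 2 and 3, as in all lists of values), 0.18, 0.77 and 0.67 in libraries labelled knockout with PBS, 1.14, 1.15 and 0.96 in wild type with LPS, and 2.68, 2.67 and 3.25 in libraries labelled knockout with LPS. The 4 groups did not overlap, and the lowest rested on 12, 29 and 18 counts. In BMDMs, Abca1 stood at 107, 103 and 105 FPKM in wild type with PBS, 103, 102 and 101 in knockout with PBS, 30.2, 38.5 and 38.7 in wild type with LPS, and 56.6, 56.7 and 58.2 in knockout with LPS. These groups did not overlap either, although both PBS groups lay within a few FPKM of each other.

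Abcg1 (ENSMUSG00000024030, chr17:31057675-31117988, plus strand, up to 15 exons) encodes a transporter that passes cholesterol to high-density lipoprotein. In RAW264.7, Abcg1 stood at 13.2, 13.6 and 14.5 FPKM in wild type with PBS, 15.7, 17.1 and 16.5 in libraries labelled knockout with PBS, 3.95, 3.95 and 4.48 in wild type with LPS, and 4.93, 3.92 and 4.96 in libraries labelled knockout with LPS. Both LPS groups overlapped each other and lay under both PBS groups. In BMDMs, Abcg1 stood at 49.2, 51.4 and 49.7 FPKM in wild type with PBS, 40.8, 40.0 and 39.3 in knockout with PBS, 62.5, 62.3 and 64.5 in wild type with LPS, and 51.35, 50.1 and 51.8 in knockout with LPS. Wild type with LPS was highest and knockout with PBS lowest, and the other 2 groups overlapped.

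Nr1h3 (ENSMUSG00000002108, chr2:91184061-91202834, minus strand, up to 10 exons) encodes LXR alpha. In RAW264.7, Nr1h3 stood at 1.76, 1.67 and 1.36 FPKM in wild type with PBS, 1.04, 1.09 and 0.72 in libraries labelled knockout with PBS, 2.05, 1.78 and 2.20 in wild type with LPS, and 1.26, 1.72 and 2.18 in libraries labelled knockout with LPS. Libraries labelled knockout with PBS were lowest and stood apart, while the LPS groups overlapped each other. In BMDMs, Nr1h3 stood at 9.08, 8.50 and 8.48 FPKM in wild type with PBS, 8.71, 7.74 and 8.60 in knockout with PBS, 8.23, 7.21 and 8.14 in wild type with LPS, and 10.3, 11.2 and 12.1 in knockout with LPS. Knockout with LPS lay above the other 3 groups, whose neighbours in level overlapped.

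Apoe (ENSMUSG00000002985, chr7:19696109-19699188, minus strand, up to 5 exons) encodes the apolipoprotein that macrophages secrete as an acceptor of cholesterol and a ligand of lipoprotein receptors. In RAW264.7, Apoe stood at 8.72, 9.47 and 8.11 FPKM in wild type with PBS, 9.48, 6.95 and 6.90 in libraries labelled knockout with PBS, 9.24, 8.52 and 8.56 in wild type with LPS, and 7.39, 6.42 and 7.90 in libraries labelled knockout with LPS. Neighbours in level overlapped throughout. In BMDMs, Apoe was the most abundant member, at 3678, 3729 and 3589 FPKM in wild type with PBS, 3325, 3212 and 3223 in knockout with PBS, 2958, 2683 and 2708 in wild type with LPS, and 2196, 2197 and 2273 in knockout with LPS. None of these 4 groups overlapped.

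Lpl (ENSMUSG00000015568, chr8:68880491-68907448, plus strand, up to 11 exons) encodes lipoprotein lipase, which hydrolyses the triglycerides of circulating lipoproteins. In RAW264.7, Lpl was the most abundant member in wild type with PBS, at 105, 95.5 and 102 FPKM, and stood at 93.3, 103 and 107 in libraries labelled knockout with PBS. With LPS it stood at 156, 154 and 152 FPKM in wild type and at 311, 296 and 299 in libraries labelled knockout. Both PBS groups overlapped, and the LPS groups stood apart from them and from each other. In BMDMs, Lpl stood at 656, 651 and 656 FPKM in wild type with PBS, 744, 759 and 773 in knockout with PBS, 355, 341 and 344 in wild type with LPS, and 491, 476 and 487 in knockout with LPS, with no overlap.

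Pltp (ENSMUSG00000017754, chr2:164839518-164857711, minus strand, up to 16 exons) encodes the plasma protein that moves phospholipids between lipoproteins. In RAW264.7, Pltp stood at 18.5, 19.1 and 21.3 FPKM in wild type with PBS, 11.65, 8.67 and 7.53 in libraries labelled knockout with PBS, 11.1, 11.65 and 10.1 in wild type with LPS, and 3.66, 3.52 and 3.89 in libraries labelled knockout with LPS. Wild type with PBS was highest, libraries labelled knockout with LPS were lowest, and the 2 groups between them overlapped. In BMDMs, Pltp stood at 266, 273 and 258 FPKM in wild type with PBS, 225, 219 and 216 in knockout with PBS, 171, 163 and 163 in wild type with LPS, and 121, 119 and 123 in knockout with LPS, with no overlap. Ctsa, whose exons overlap those of Pltp, averaged 171, 141, 121 and 89.2 FPKM in RAW264.7 and 257, 243, 183 and 174 FPKM in BMDMs in the same order of groups.

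Npc2 (ENSMUSG00000021242, chr12:84754562-84773152, minus strand, up to 4 exons) encodes a sterol-binding protein of late endosomes and lysosomes that hands cholesterol to NPC1. In RAW264.7, Npc2 stood at 53.5, 51.7 and 49.8 FPKM in wild type with PBS, 42.8, 27.0 and 27.7 in libraries labelled knockout with PBS, 64.3, 65.0 and 64.0 in wild type with LPS, and 27.4, 27.65 and 27.7 in libraries labelled knockout with LPS. Both wild-type groups lay above both groups labelled knockout, which overlapped each other. In BMDMs, Npc2 stood at 305, 317 and 299 FPKM in wild type with PBS, 204, 200.4 and 198 in knockout with PBS, 348, 317 and 323 in wild type with LPS, and 247, 249 and 249 in knockout with LPS. Wild type lay above knockout under both treatments.

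Mylip (ENSMUSG00000038175, chr13:45389742-45412022, plus strand, up to 7 exons) encodes a ubiquitin ligase that limits lipoprotein uptake. In RAW264.7, Mylip stood at 7.50, 7.80 and 8.99 FPKM in wild type with PBS, 9.37, 12.35 and 11.5 in libraries labelled knockout with PBS, 5.03, 5.53 and 3.56 in wild type with LPS, and 8.35, 8.59 and 8.49 in libraries labelled knockout with LPS. Wild type with LPS was lowest and stood apart, and libraries labelled knockout with PBS were highest. In BMDMs, Mylip stood at 30.5, 29.4 and 30.2 FPKM in wild type with PBS, 30.2, 27.75 and 27.0 in knockout with PBS, 11.4, 11.9 and 11.6 in wild type with LPS, and 8.66, 9.90 and 9.48 in knockout with LPS. Both LPS groups lay under both PBS groups, which overlapped.

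**Figure D1:**
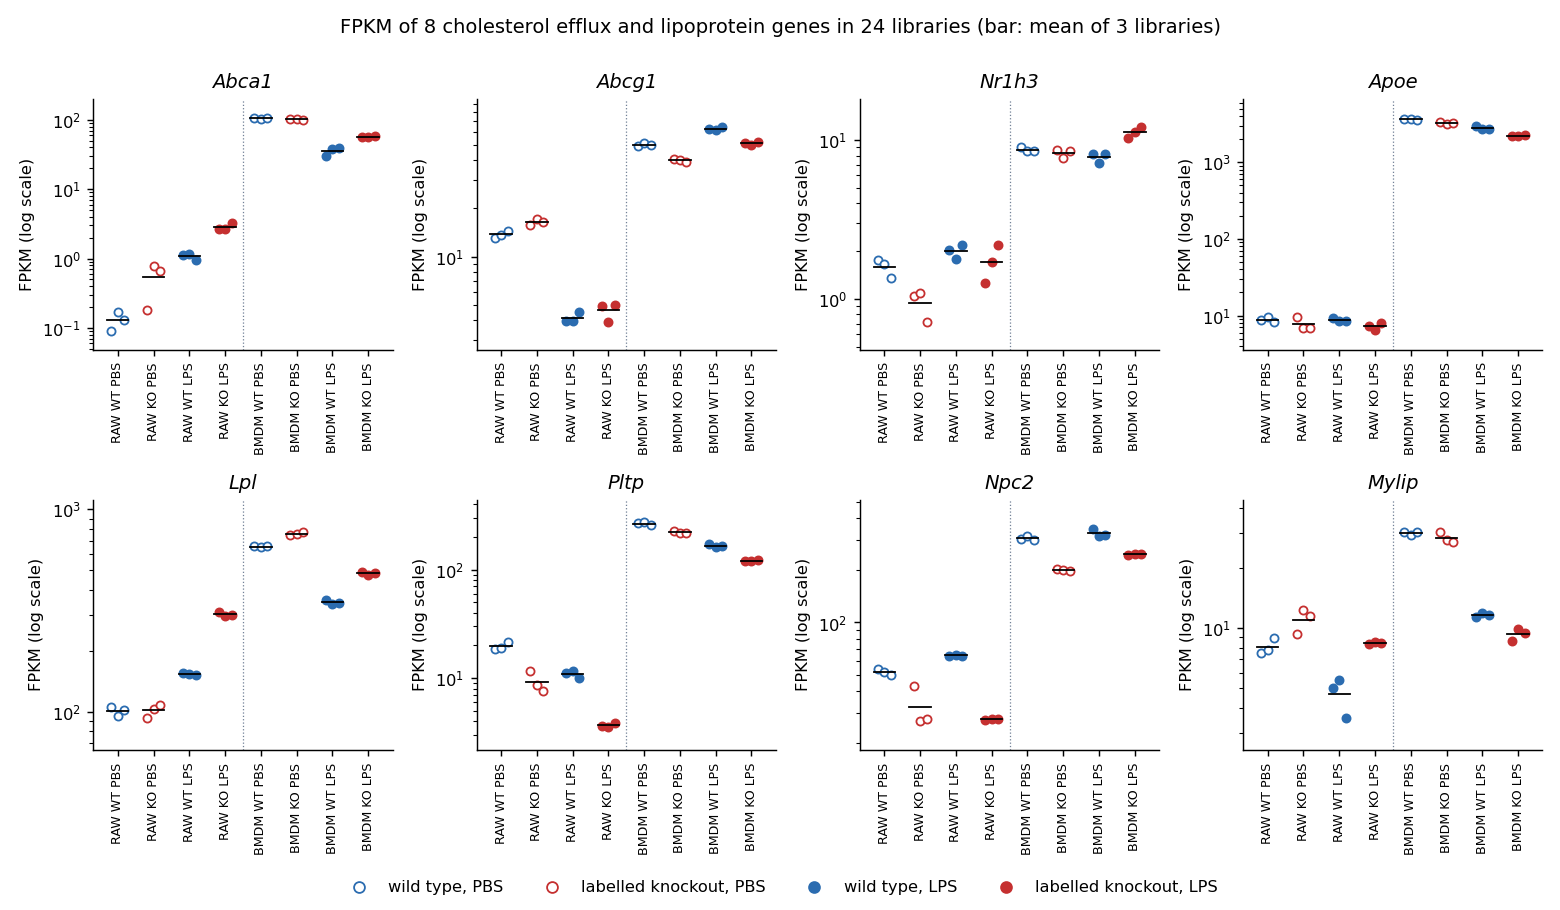
FPKM of the 8 members in each of the 24 libraries on a log axis, with 1 panel per gene, points for libraries (blue wild type, red labelled knockout, open PBS, filled LPS) and a bar at the mean of 3. Apoe spans 6.42 to 9.48 FPKM in RAW264.7 and 2196 to 3729 FPKM in BMDMs, 2 tables that were made apart.

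With PBS, RAW264.7 libraries labelled knockout held more Abca1 RNA than wild type and less of Pltp and Npc2. Abca1, the exporter to apolipoprotein A-I, averaged 0.54 ± 0.316 FPKM against 0.13 ± 0.04 (SD, n = 3), 4.15-fold higher. Pltp averaged 9.28 ± 2.13 FPKM against 19.6 ± 1.49, and Npc2 32.5 ± 8.94 against 51.7 ± 1.82. For each of these genes, 3 of 3 libraries labelled knockout lay beyond all wild-type libraries, and so they did for 24.1% of all genes tested and 41.7% of 11336 genes with a mean of at least 1 FPKM. limma called 1 member higher, where 4.79% of all genes tested were called higher, and 2 lower, where 3.77% were called lower. Log2 fold changes were 1.33 ± 0.36 (SE) for Abca1 (limma adjusted p = 0.0446), -1.09 ± 0.15 for Pltp (0.00135) and -0.70 ± 0.15 for Npc2 (0.0193). Nr1h3 stood at -0.70 ± 0.21 and was not called (limma adjusted p = 0.0563), but it was called lower with median-ratio scaling (0.0485), edgeR (0.0189) and DESeq2 (0.0147). Log2 fold changes of the other 4 members were 0.25 for Abcg1, -0.18 for Apoe, 0.01 for Lpl and 0.44 for Mylip, with limma adjusted p from 0.105 to 1.00, and Lpl turned to -0.04 with median-ratio scaling and Apoe to 0.00 on TPM.

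Without replicate 1 labelled knockout with PBS, which stood apart, 1 member was called higher and 3 lower, where 12.7% and 8.11% of 26538 genes were. Abca1 then stood at 1.85 ± 0.16 (limma adjusted p = 3.91e-05), Pltp at -1.27 ± 0.10 (2.19e-05), Npc2 at -0.91 ± 0.05 (3.88e-06) and Nr1h3 at -0.77 ± 0.24 (0.0369). Apoe at -0.33 (limma adjusted p = 0.0321) and Mylip at 0.56 (0.0337) then passed the adjusted p but not the fold threshold. The calls of Abca1 and Npc2 were both lost without replicate 1 of wild type with PBS (limma adjusted p = 0.136 and 0.0688), without its replicate 2 (0.0834 and 0.0613) or replicate 3 (0.107 and 0.0534), and without replicate 2 (0.153 and 0.0730) or replicate 3 (0.160 and 0.0753) labelled knockout with PBS, where Abca1 stood between 1.03 and 1.45 and Npc2 between -0.72 and -0.58. They were also lost where only the 2 groups compared were fitted (0.206 and 0.157), Abca1 with a pseudocount of 0.01 (0.0542) or 1 (0.0614), and Npc2 on TPM (log2 fold change -0.51). TPM, which sets each library to one sum of length-corrected counts, moved the median gene by 0.19, and the share of higher genes among those called from 56.0% to 68.9%, whereas median-ratio scaling moved it to 47.3%.

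With LPS, RAW264.7 libraries labelled knockout held more Lpl, Mylip and Abca1 RNA and less Pltp and Npc2 than wild type with LPS. Lpl, the lipase, averaged 302 ± 7.70 FPKM against 154 ± 2.16, a 1.96-fold difference. Mylip averaged 8.48 ± 0.121 FPKM against 4.71 ± 1.02, and Abca1 2.87 ± 0.332 against 1.08 ± 0.107. Pltp averaged 3.69 ± 0.187 FPKM against 10.9 ± 0.811, and Npc2 27.6 ± 0.157 against 64.4 ± 0.524. In all 5, 3 of 3 libraries labelled knockout lay beyond every wild-type library, which also held for 40.2% of all genes tested and 73.1% of those with a mean of at least 1 FPKM. limma called 3 members higher (9.73% of all genes tested) and 2 lower (7.60%). Log2 fold changes were 0.97 ± 0.08 for Lpl (limma adjusted p = 3.58e-05), 0.86 ± 0.16 for Mylip (0.00579), 1.32 ± 0.36 for Abca1 (0.0266), -1.54 ± 0.15 for Pltp (0.000113) and -1.22 ± 0.15 for Npc2 (0.000601). Abcg1 at 0.15, Nr1h3 at -0.24 and Apoe at -0.28 were not called (limma adjusted p = 0.366, 0.467 and 0.177). The call of Abca1 was lost without any 1 of the 6 libraries, with limma adjusted p of 0.0628, 0.0621 and 0.0813 without wild-type replicates 1, 2 and 3 and of 0.0608, 0.0608 and 0.0786 without replicates 1, 2 and 3 labelled knockout, and with a pseudocount of 0.01 (0.0681). It was kept where only the 2 groups compared were fitted. These p-values, apart from that fit, use a spread shared by all RAW264.7 groups, including replicate 1 labelled knockout with PBS, which stood apart. On TPM the median gene moved by 0.23 and the share of higher genes among those called from 56.1% to 75.0%. Ctsa, which overlaps Pltp, stood at -0.44 (limma adjusted p = 0.00523), short of the fold threshold, with LPS and at -0.29 (0.0525) with PBS, and it fell with LPS in libraries labelled knockout (-0.65, 0.000191).

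In BMDMs with PBS, Npc2 was lower in knockout, and no other member passed both thresholds. Npc2, the lysosomal sterol carrier, averaged 201 ± 3.00 FPKM against 307 ± 9.22 in wild type, which was 1.53-fold higher. All 3 knockout libraries lay under all 3 wild-type libraries. limma called 0 members higher, where 0.901% of genes tested were called higher, and 1 lower, where 0.916% were. At an unadjusted p under 0.05 there were 5 members in either direction and 14.7% of all genes tested, and edgeR and DESeq2 each called 1. Npc2 stood at -0.61 ± 0.05 (limma adjusted p = 7.23e-05). Abcg1 at -0.32 ± 0.04 (0.00178), Pltp at -0.27 ± 0.04 (0.00707) and Lpl at 0.21 ± 0.04 (0.0160) passed limma's adjusted p but not the fold threshold, each with 3 of 3 knockout libraries beyond all wild-type libraries, as in 20.5% of all genes tested and 40.8% of those with a mean of at least 1 FPKM. Apoe stood at -0.17 (limma adjusted p = 0.110), Mylip at -0.09 (0.587), Nr1h3 at -0.06 (0.817) and Abca1 at -0.04 (0.908).

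With LPS, Abca1 was higher in BMDM knockout, at 57.2 ± 0.910 FPKM against 35.8 ± 4.87 in wild type, a 1.60-fold difference. Every member differed by adjusted p alone, as did 4804 of 26973 genes tested, but the other 7 differed by less than 1.5-fold. Lpl averaged 485 ± 7.97 FPKM against 347 ± 7.21 and Nr1h3 11.2 ± 0.905 against 7.86 ± 0.565, while Pltp averaged 121 ± 2.00 against 166 ± 4.55 and Apoe 2222 ± 44.0 against 2783 ± 152. For each of the 8 members, 3 of 3 knockout libraries lay beyond all wild-type libraries, as they did for 26.7% of all genes tested and 56.4% of 10555 genes with a mean of at least 1 FPKM. limma called 1 member higher (3.23% of genes tested) and 0 lower (1.53%), with 8 at an unadjusted p under 0.05, where 27.4% of all genes tested were. edgeR and DESeq2 did not call Abca1 (0.53 and 0.52) and each called Pltp lower (-0.60 and -0.61). Abca1 stood at 0.68 ± 0.09 (limma adjusted p = 0.000605), Nr1h3 at 0.50 (0.00213) and Lpl at 0.48 (6.42e-05). Pltp stood at -0.45 (limma adjusted p = 0.000143), Npc2 at -0.41 (0.000416), Apoe at -0.32 (0.00171), Mylip at -0.31 (0.00681) and Abcg1 at -0.30 (0.000865). The median of genes with at least 1 FPKM stood at 0.13 and at -0.02 with median-ratio scaling, and under it Abca1 was no longer called (0.53) while Pltp was called lower (-0.61). The scaling also moved the share of higher genes among those called from 67.9% to 43.4%. Without replicate 1 of wild type with LPS, Abca1 was not called (0.57, limma adjusted p = 0.000118) and the count of members called was 0.

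**Figure D2:**
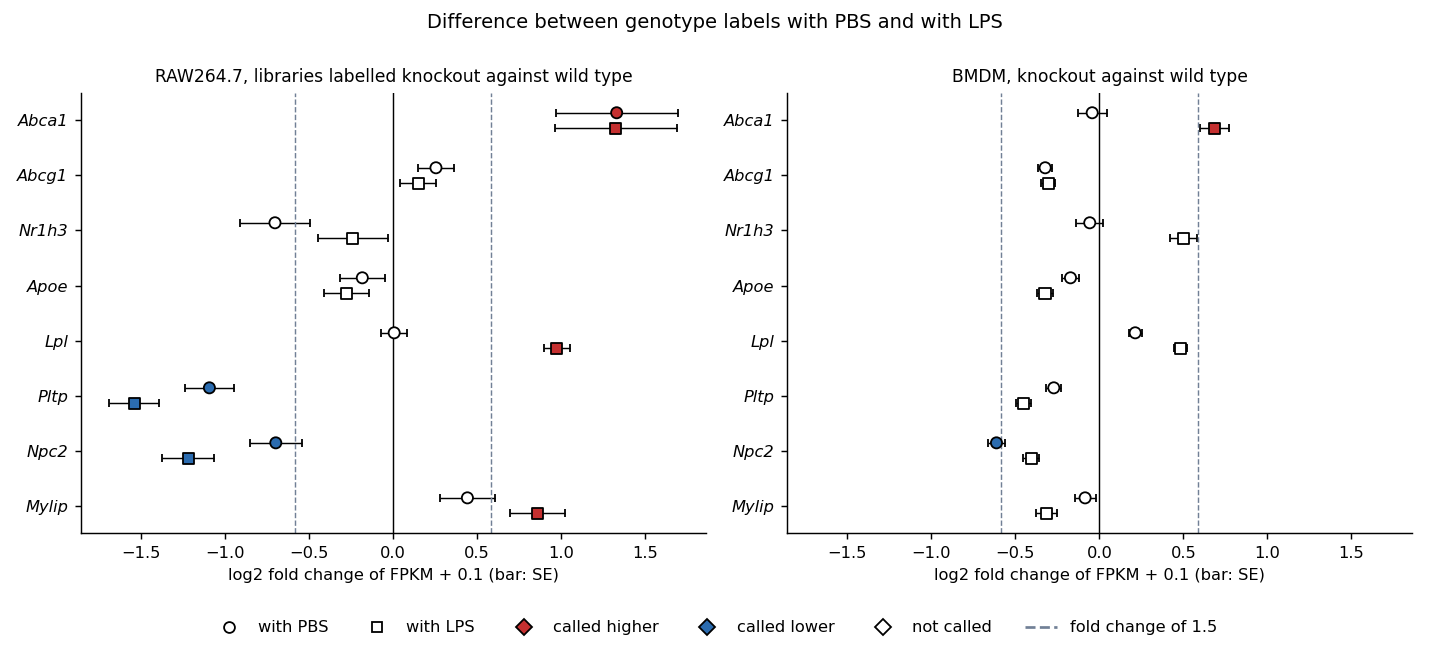
Log2 fold change with its standard error of the 8 members in RAW264.7 libraries labelled knockout (left) and BMDM knockout (right) against wild type, circles for PBS and squares for LPS, red where called higher, blue where called lower, white where not called, with dashed lines at 1.5-fold. Npc2 was called lower in both RAW264.7 comparisons and in BMDMs with PBS, and its call in RAW264.7 with PBS was lost in 7 of 17 alternatives. Abca1 was called higher in BMDMs with LPS, a call that median-ratio scaling ended.

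LPS against PBS called 5 members in RAW264.7 libraries labelled wild type, both exporters among them and in opposite directions. Abca1 rose from 0.13 ± 0.04 to 1.08 ± 0.107 FPKM, 8.33-fold. Abcg1 fell from 13.8 ± 0.696 to 4.13 ± 0.306 FPKM. Lpl rose from 101 ± 4.95 to 154 ± 2.16 FPKM, Pltp fell from 19.6 ± 1.49 to 10.9 ± 0.811, and Mylip fell from 8.10 ± 0.788 to 4.71 ± 1.02. In each, 3 of 3 libraries with LPS lay beyond all libraries with PBS, as for 38.8% of all genes tested and 74.0% of those with a mean of at least 1 FPKM. limma called 2 members higher (5.80% of genes tested) and 3 lower (12.5%). Log2 fold changes were 2.37 ± 0.36 for Abca1 (limma adjusted p = 0.000837), 0.61 ± 0.08 for Lpl (0.000230), -1.72 ± 0.11 for Abcg1 (1.65e-06), -0.84 ± 0.15 for Pltp (0.00197) and -0.79 ± 0.16 for Mylip (0.00547). Nr1h3 and Npc2, both at 0.32, and Apoe at 0.00 were not called (limma adjusted p = 0.380, 0.194 and 1.00). Median-ratio scaling moved the median gene from -0.22 to 0.02 and the share of higher genes among those called from 31.7% to 49.7%. Under it Mylip stood at -0.55 and was not called, nor was it by edgeR (-0.56) or DESeq2 (-0.54). The call of Lpl was lost without replicate 2 of wild type with PBS (0.57, limma adjusted p = 0.00179).

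In RAW264.7 libraries labelled knockout, LPS likewise came with more Abca1 and Lpl and with less Abcg1 and Pltp. Abca1 rose from 0.54 ± 0.316 to 2.87 ± 0.332 FPKM, Lpl from 101 ± 7.23 to 302 ± 7.70, and Nr1h3 from 0.95 ± 0.201 to 1.72 ± 0.46. Abcg1 fell from 16.4 ± 0.709 to 4.60 ± 0.592 FPKM and Pltp from 9.28 ± 2.13 to 3.69 ± 0.187. All 3 libraries with LPS lay beyond all 3 with PBS for each of these genes, for 35.5% of all genes tested and for 63.2% of those with a mean of at least 1 FPKM. limma called 3 members higher (7.45% of genes tested) and 2 lower (14.6%). Log2 fold changes were 2.37 ± 0.36 for Abca1 (limma adjusted p = 0.000709), 1.58 ± 0.08 for Lpl (2.33e-07), 0.78 ± 0.21 for Nr1h3 (0.0181), -1.82 ± 0.11 for Abcg1 (8.21e-07) and -1.29 ± 0.15 for Pltp (9.52e-05). Mylip at -0.37 (limma adjusted p = 0.135), Npc2 at -0.20 (0.385) and Apoe at -0.09 (0.690) were not called, and Npc2 and Apoe turned to 0.06 and 0.17 with median-ratio scaling, which moved the median gene from -0.22 to 0.04 and the share of higher genes among those called from 33.8% to 51.7%. Without replicate 1 labelled knockout with PBS the same 5 members were called, with Abca1 at 1.85, Lpl at 1.52, Nr1h3 at 0.85, Abcg1 at -1.85 and Pltp at -1.11, and Apoe and Npc2 turned to 0.06 and 0.01. The call of Nr1h3 was lost without replicate 3 labelled knockout with PBS (limma adjusted p = 0.0611), without replicates 2 (0.0533) or 3 (0.0648) labelled knockout with LPS, where only the 2 groups were fitted (0.0902), and with a pseudocount of 1.

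In wild-type BMDMs, LPS came with lower FPKM of Abca1, Mylip, Lpl and Pltp, within a table in which most called genes fell. Abca1 fell from 105 ± 2.24 to 35.8 ± 4.87 FPKM and Mylip from 30.0 ± 0.581 to 11.6 ± 0.265. Lpl fell from 654 ± 3.40 to 347 ± 7.21 FPKM and Pltp from 266 ± 7.12 to 166 ± 4.55, although Lpl was not called and Pltp stood higher with median-ratio scaling. In all 4, 3 of 3 libraries with LPS lay under all libraries with PBS, and the groups stood apart in either direction for 52.2% of all genes tested and 91.3% of those with a mean of at least 1 FPKM. limma called 0 members higher, where 7.94% of genes tested were, and 4 lower, where 32.5% were, with 6 members at an unadjusted p under 0.05 in either direction, where 53.9% of all genes tested were. edgeR called 3 higher (Abcg1, Nr1h3 and Npc2) and 2 lower (Abca1 and Mylip), and DESeq2 the same 3 higher and Abca1 lower. Log2 fold changes were -1.56 ± 0.09 for Abca1 (limma adjusted p = 1.19e-07), -1.36 ± 0.06 for Mylip (3.06e-08), -0.92 ± 0.04 for Lpl (2.04e-08) and -0.68 ± 0.04 for Pltp (3.54e-07). The median of 11293 genes with at least 1 FPKM stood at -0.76 and at 0.02 with median-ratio scaling, which moved the share of higher genes among those called from 19.6% to 47.9%. Under that scaling Abca1 was still called lower (-0.76, limma adjusted p = 4.67e-05), Mylip at -0.56 and Lpl at -0.11 were not called, and Pltp stood at 0.12. Abcg1 went from 0.33 to 1.14, Npc2 from 0.10 to 0.90 and Nr1h3 from -0.14 to 0.65, each then called higher, and Apoe turned from -0.40 to 0.41 and was called under neither.

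In BMDM knockout, LPS came with lower FPKM of the same 4 members. Mylip fell from 28.3 ± 1.68 to 9.35 ± 0.631 FPKM and Pltp from 219.9 ± 4.66 to 121 ± 2.00. Abca1 fell from 102 ± 0.796 to 57.2 ± 0.910 FPKM and Lpl from 759 ± 14.6 to 485 ± 7.97, although Abca1 was not called and Lpl stood slightly higher with median-ratio scaling. Again 3 of 3 libraries with LPS lay under all libraries with PBS, and groups stood apart for 52.1% of all genes tested and 91.1% of those with a mean of at least 1 FPKM. limma called 0 members higher (8.02% of genes tested) and 4 lower (30.9%), with 8 at an unadjusted p under 0.05 (53.5% of all genes tested). edgeR and DESeq2 each called Abcg1, Nr1h3 and Npc2 higher and Mylip lower, and called neither Pltp, Abca1 nor Lpl. Log2 fold changes were -1.59 ± 0.06 for Mylip (limma adjusted p = 1.19e-08), -0.86 ± 0.04 for Pltp (7.25e-08), -0.83 ± 0.09 for Abca1 (1.57e-05) and -0.65 ± 0.04 for Lpl (3.00e-07). The median gene stood at -0.66 and at 0.02 with median-ratio scaling, with the share of higher genes among those called going from 20.6% to 46.8%. Under that scaling Mylip alone of the 4 was still called lower (-0.90), Pltp stood at -0.17, Abca1 at -0.14 and Lpl at 0.05. Abcg1 went from 0.35 to 1.04, Npc2 from 0.31 to 1.00 and Nr1h3 from 0.42 to 1.10, each then called higher, and Apoe turned from -0.55 to 0.14.

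**Figure D3:**
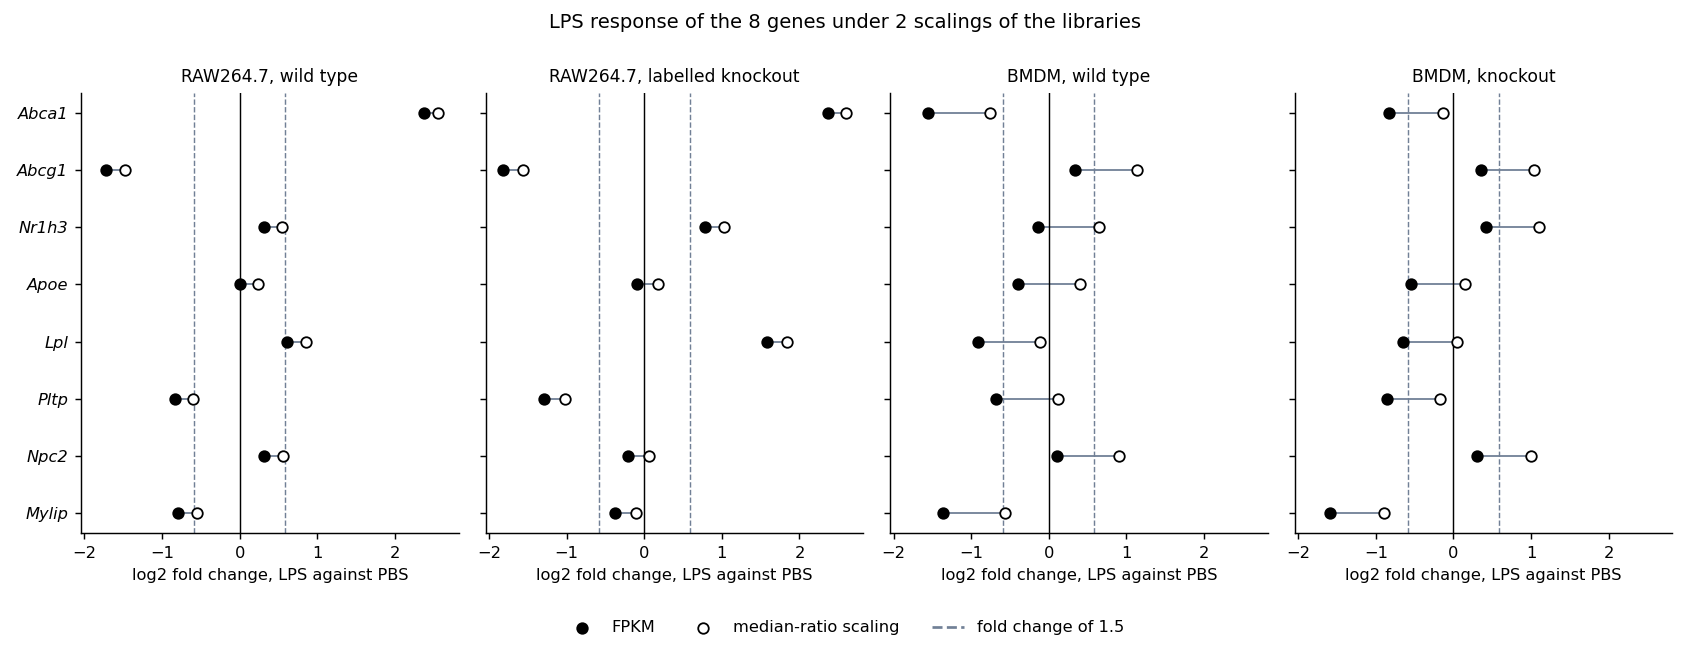
Log2 fold change of the 8 members with LPS against PBS in wild type and in libraries labelled knockout of both cell types, filled points on FPKM and open points with median-ratio scaling, dashed lines at 1.5-fold. In BMDMs the open points lie to the side of higher values, and Pltp and Nr1h3 in wild type, Lpl in knockout and Apoe in both turn from lower to higher, as do Apoe and Npc2 in RAW264.7 labelled knockout.

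Whether the response to LPS differed between wild type and libraries labelled knockout was tested as an interaction. In RAW264.7, Lpl rose more with LPS in the libraries labelled knockout than in wild type, by 0.97 ± 0.11 on the log2 scale (limma adjusted p = 0.00181), and by 0.91 ± 0.08 (0.000443) without replicate 1 labelled knockout with PBS. limma called this member alone, 1 higher where 0.905% of genes tested were and 0 lower where 1.04% were, with 2 members at an unadjusted p under 0.05 (10.2% of all genes tested) and 1 called by each of edgeR and DESeq2. Nr1h3 at 0.46, Mylip at 0.42, Pltp at -0.45, Npc2 at -0.52, Abcg1 at -0.11, Apoe at -0.09 and Abca1 at -0.01 were not called. The value of Abca1 rests on low counts and moved with the setting, standing at 0.04 with median-ratio scaling, -0.59 with edgeR, -0.60 with DESeq2 and 0.46 with a pseudocount of 1, and was called in none. Without replicate 1 labelled knockout with PBS, Abca1 stood at -0.52 (limma adjusted p = 0.265), Pltp at -0.27 (0.362), Apoe at 0.05 (0.863) and Npc2 at -0.31 (0.0383), under the fold threshold. Lpl had been alike in wild type and in libraries labelled knockout with PBS (0.01) and 1.96-fold higher in the libraries labelled knockout with LPS.

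In BMDMs the member with a called interaction was Abca1, which fell less with LPS in knockout than in wild type. The difference was 0.73 ± 0.12 (limma adjusted p = 0.00833), and 0.62 (0.0210) with median-ratio scaling, which moved the median gene from 0.11 to 0.01 and the share of higher genes among those called from 65.1% to 46.8%. limma called 1 member higher (1.91% of genes tested) and 0 lower (1.02%), with 6 at an unadjusted p under 0.05 (18.3% of all genes tested) and 1 called by each of edgeR and DESeq2. Nr1h3 at 0.56 (limma adjusted p = 0.0194) and Lpl at 0.27 (0.0218) passed the adjusted p but not the fold threshold. Nr1h3 was called without replicate 1 of knockout with PBS (0.59, limma adjusted p = 0.0327), without replicates 1 (0.59, 0.0254) or 3 (0.59, 0.0312) of wild type with LPS, and without replicate 1 of knockout with LPS (0.62, 0.0185). The other 5 members had limma adjusted p from 0.121 to 0.893, with Abcg1 turning from 0.02 to -0.09 with median-ratio scaling.

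Across the 2 cell types, 10 of 32 pairs of a member and a contrast had groups that did not overlap in either table and pointed in opposite directions on FPKM. With median-ratio scaling 8 of them still had opposite signs, whether or not their groups overlapped. Of all 93688 such pairs of genes tested in both, 6.66% had groups apart in opposite directions on FPKM, and 13.6% of 38092 pairs of genes with a mean of at least 1 FPKM in both. Both values were called in 4 of the 10. On FPKM, Abca1 and Lpl rose with LPS in RAW264.7 and fell in BMDMs, in wild type and in the libraries labelled knockout alike. With median-ratio scaling only Abca1 in wild-type BMDMs was still called lower (-0.76), while Lpl in wild type (-0.11) and Abca1 in knockout (-0.14) were not called and Lpl in knockout turned to 0.05. The difference between cell types was not tested, since the tables were made apart.

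The other genes of the pathway were taken from 5 lists. Over all genes tested, the median was 0.02 between RAW264.7 genotype labels with PBS and 0 with LPS, -0.05 and -0.07 for LPS in wild type and in libraries labelled knockout, and -0.01 for the interaction. In BMDMs these medians were 0.01, 0.04, -0.30, -0.28 and 0.05. Among genes with at least 1 FPKM, the median for LPS against PBS was -0.76 in wild-type BMDMs and -0.66 in knockout. List medians are those on FPKM where no scaling is named. With genes at 0 in a whole group set to the limit that 3 counts over the group allow, list medians moved by at most 0.21. Counts in the lists stand beside the shares of all genes tested that were called. For LPS against PBS, in wild type and then in libraries labelled knockout, 5.80% and 7.45% were called higher and 12.5% and 14.6% lower in RAW264.7, and 7.94% and 8.02% higher and 32.5% and 30.9% lower in BMDMs. For libraries labelled knockout against wild type, with PBS and then with LPS, 4.79% and 9.73% were called higher and 3.77% and 7.60% lower in RAW264.7, and 0.901% and 3.23% higher and 0.916% and 1.53% lower in BMDMs. Unadjusted p was under 0.05 for 29.9% and 35.9% of all genes tested in these RAW264.7 comparisons and for 14.7% and 27.4% in those of BMDMs, and for 10.2% and 18.3% in the interactions of RAW264.7 and BMDMs. In the interactions, 0.905% were called higher and 1.04% lower in RAW264.7, and 1.91% higher and 1.02% lower in BMDMs.

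Of 8 nuclear receptors and corepressors of the LXR pathway (Nr1h2, Rxra, Rxrb, Pparg, Ppard, Ncor1, Gps2 and Tbl1xr1), 7 fell with LPS in BMDMs of both genotypes and 0 rose. Rxra, the partner of LXR, fell from 12.9 to 0.763 FPKM in wild type (log2 fold change -3.92, limma adjusted p = 2.99e-10), Pparg, a receptor for fatty acids, from 22.6 to 1.60 (-3.74) and Tbl1xr1, which exchanges corepressors, from 9.31 to 2.33 (-1.96). In knockout the values were -3.56 for Rxra, -4.13 for Pparg and -1.71 for Tbl1xr1. List medians were -1.61 in wild type and -1.55 in knockout, and -0.84 and -0.88 with median-ratio scaling. With median-ratio scaling 5 fell in wild type and 6 in knockout, with Rxra at -3.17, Pparg at -2.96 and Tbl1xr1 at -1.17 in wild type. In RAW264.7, 5 fell with LPS in wild type (Rxra, Pparg, Rxrb, Ppard and Gps2) and 4 in libraries labelled knockout (Ppard, Rxrb, Rxra and Gps2), with medians of -0.69 and -0.58. With PBS, Rxra stood at only 0.257 FPKM in wild type and 0.09 in libraries labelled knockout, and Pparg at 0.0867 in wild type. At such levels the fitted values depend on the pseudocount. With median-ratio scaling 2 and 3 fell, with medians of -0.45 and -0.31. In wild type edgeR called 3 and DESeq2 1, and in libraries labelled knockout each called 3. Rxrb fell from 24.5 to 13.9 FPKM in wild type (-0.82) and Ppard from 5.94 to 2.01 in libraries labelled knockout (-1.51). In RAW264.7 libraries labelled knockout against wild type, Ppard was higher with PBS (0.95 ± 0.13, limma adjusted p = 0.00119) and Rxra (0.09 against 0.257 FPKM) and Pparg (0.0133 against 0.0867 FPKM) were lower, with a list median of -0.08. Ncor1 was higher with LPS (1.17 ± 0.30, limma adjusted p = 0.0216, list median -0.10), a call lost without any 1 of the 6 libraries.

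Single libraries changed some of these counts. In RAW264.7 with PBS, 2 receptors and corepressors were higher and 2 lower without replicate 1 labelled knockout, and with LPS against PBS in wild type 4 were lower without replicate 1 of wild type with LPS. Of these genes 8 were lower with LPS in BMDM wild type without replicates 1 or 2 with PBS or replicate 1 with LPS. The RAW264.7 interaction called 1 gene higher, Pparg, whose group means were at most 0.0867 FPKM, with a list median of -0.14, and this call was lost without any 1 of 10 of the 12 libraries. Without replicate 2 of wild type with PBS the count did not change, and without replicate 1 labelled knockout with PBS 1 was higher and 1 lower. In BMDM knockout against wild type, limma called 0 with PBS (1 at an unadjusted p under 0.05, 0 by edgeR and by DESeq2; list median 0.04) and 1 lower with LPS, Pparg at -0.60 (limma adjusted p = 0.00867; list median 0.21), a call lost without replicate 2 of wild type with LPS or replicate 2 of knockout with LPS. With median-ratio scaling these list medians went to -0.0017 with PBS and 0.06 with LPS. The BMDM interaction called 0 (3 at an unadjusted p under 0.05, 0 by edgeR and by DESeq2; list median 0.18).

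Among 12 other genes known as LXR targets (Srebf1, Scd1, Scd2, Fasn, Lpcat3, Mertk, Smpdl3a, Arl4c, Apoc1, Apoc2, Apoc4 and Cd5l), 8 were tested in RAW264.7 and 12 in BMDMs. In RAW264.7 libraries labelled wild type 5 fell and 0 rose (Scd2, Scd1, Srebf1, Arl4c and Smpdl3a), with Scd2, a desaturase, going from 341 to 95.0 FPKM (-1.84 ± 0.11, limma adjusted p = 1.31e-06) and Srebf1, which encodes SREBP1, from 33.9 to 15.6 (-1.12). The same 5 fell in libraries labelled knockout, Scd2 by 2.18. List medians were -0.85 and -0.96, and with median-ratio scaling 4 fell in wild type and 5 fell and 1 rose in libraries labelled knockout. In BMDMs 7 of 12 fell in wild type (32.5% of all genes tested) and 5 in knockout (30.9%) and 0 rose, with medians of -0.79 and -0.61. With median-ratio scaling 3 fell and 1 rose in each, and the medians were -0.18 and -0.09. Arl4c, a small GTPase, fell from 35.2 to 2.45 FPKM in wild type (-3.79), Scd2 from 95.9 to 12.5 (-2.94; -2.14 with median-ratio scaling) and Fasn, the fatty acid synthase, from 8.94 to 1.58 (-2.43; -1.65). With LPS, Fasn at 1.25 ± 0.08 (limma adjusted p = 1.50e-05) and Scd2 at 0.87 ± 0.06 (1.99e-05) were higher in BMDM knockout, 2 of 12 with a median of 0.10, and both had called interactions (0.89 and 0.78; list median 0.18). Without replicate 1 of wild type with LPS or replicate 1 of knockout with LPS, 1 gene was also called lower, and with median-ratio scaling 2 were.

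RAW264.7 libraries labelled knockout held more Smpdl3a, a phosphodiesterase, with PBS (0.90 ± 0.17, limma adjusted p = 0.0102; list median -0.12) and more Fasn with LPS (0.81 ± 0.18, 0.0106; list median -0.22), and 0 of these LXR targets were called lower in either. The count of 1 with PBS went to 0 in 1 of 17 alternatives. limma called 0 in the RAW264.7 interaction, with 0 at an unadjusted p under 0.05, 0 by edgeR and DESeq2 and a list median of -0.07. In BMDMs with PBS limma called 0 between genotypes, with 4 at an unadjusted p under 0.05, 0 by edgeR and DESeq2 and a list median of -0.05.

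The 12 genes of cholesterol hydrolysis, esterification, transfer and oxysterol synthesis (Npc1, Lipa, Nceh1, Soat1, Scarb1, Stard3, Stard4, Gramd1a, Gramd1b, Cyp27a1, Ch25h and Abca7) all moved with LPS in wild-type BMDMs, 3 higher and 9 lower. Ch25h, which makes 25-hydroxycholesterol, rose from 0.22 to 5.66 FPKM (4.24 ± 0.41, limma adjusted p = 8.47e-06). Soat1, which esterifies cholesterol, fell from 60.5 to 13.3 FPKM (-2.18; -1.38 with median-ratio scaling) and Nceh1, which hydrolyses the esters, from 118 to 28.3 (-2.05; -1.25). In knockout 3 rose (Ch25h, Gramd1a and Stard3) and 8 fell, with Ch25h going from 0.117 to 2.23 FPKM and Cyp27a1, a mitochondrial sterol hydroxylase, from 23.4 to 3.67 (-2.64 ± 0.07). Medians were -1.52 in wild type and -1.18 in knockout. With median-ratio scaling 3 rose and 7 fell in wild type and 3 rose and 5 fell in knockout, with medians of -0.72 and -0.50. Without replicate 3 with PBS or replicate 1 with LPS, 8 fell in BMDM wild type. In RAW264.7, 3 rose and 7 fell with LPS in wild type and 3 rose and 6 fell in libraries labelled knockout, with medians of -0.77 and -0.38. Cyp27a1 fell from 11.9 to 2.61 FPKM in wild type (-2.15) and from 10.1 to 1.54 in libraries labelled knockout (-2.66), and Scarb1, the HDL receptor, from 20.9 to 6.52 (-1.67) and from 19.1 to 4.80 (-1.97). Without replicate 1 with LPS 4 rose in RAW264.7 wild type, and 5 fell in libraries labelled knockout without replicates 2 or 3 with PBS or replicate 2 with LPS. With median-ratio scaling 3 rose and 6 fell in RAW264.7 wild type and 4 rose and 5 fell in libraries labelled knockout. The medians were then -0.53 and -0.12.

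Ch25h was at 0 FPKM in all RAW264.7 libraries with PBS, at 0.117 ± 0.126 FPKM in wild type with LPS and at 1.21 ± 0.0902 FPKM in libraries labelled knockout with LPS. It was called higher in the latter against wild type, as were Gramd1b, which carries sterol from the plasma membrane (1.52 ± 0.18, limma adjusted p = 0.000375), and Npc1, while Cyp27a1 was lower (-0.73 ± 0.16, 0.00922), with a list median of 0.13. These 3 higher and 1 lower became 2 and 2 without replicate 1 of wild type with LPS, 2 and 1 without its replicate 3 or without replicates 1 or 3 labelled knockout, and 3 and 2 with median-ratio scaling. With PBS, Gramd1b was the 1 gene higher in libraries labelled knockout (0.95 ± 0.18, limma adjusted p = 0.00878; list median -0.06), and 2 were higher without replicate 1 labelled knockout with PBS. This count went to 0 in 1 of 17 alternatives. The RAW264.7 interaction called Ch25h (list median 0.18), a call lost without any 1 replicate of wild type with PBS, replicate 2 of wild type with LPS or replicate 3 labelled knockout with LPS, and made by neither edgeR nor DESeq2. In BMDM knockout with LPS, 3 were higher (Stard4, Gramd1b and Abca7) and 1 lower (Cyp27a1), against 3.23% and 1.53% of all genes tested, with a list median of 0.19. Stard4, a sterol carrier, stood at 1.06 ± 0.07 (limma adjusted p = 2.14e-05), Gramd1b at 0.83 ± 0.08 (0.000146) and Cyp27a1 at -0.67 ± 0.07 (0.000151). Without replicate 1 of wild type with LPS or replicate 3 of knockout with LPS, 2 were higher and 1 lower, and with median-ratio scaling 2 were higher and 2 lower (list median 0.04). Stard4 (0.78), Gramd1b (0.76) and Cyp27a1 (-0.72) had called interactions in BMDMs, 2 higher and 1 lower with a list median of 0.17, and with PBS limma called 0 (4 at an unadjusted p under 0.05, 0 by edgeR and DESeq2, list median 0.04). Both medians moved with median-ratio scaling, to 0.06 for the interaction and to -0.0017 with PBS.

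Of 9 partners of lipoprotein lipase and lipoprotein receptors (Lmf1, Gpihbp1, Angptl4, Lrp1, Lrpap1, Sort1, Apobr, Vldlr and Lrp8), all were tested in RAW264.7 and 8 in BMDMs. Sort1, a sorting receptor, was higher in RAW264.7 libraries labelled knockout under PBS (1.35 ± 0.17, limma adjusted p = 0.00104) and under LPS (1.17 ± 0.17, 0.00159). Angptl4, an inhibitor of the lipase, was lower with LPS (0.16 against 0.357 FPKM). These made 1 higher and 0 lower with PBS (list median -0.21) and 1 higher and 1 lower with LPS (-0.05), and both medians went to 0 with genes at 0 in a whole group set to their limit. Without replicate 1 labelled knockout with PBS 2 were higher with PBS, and without replicates 1 or 2 of wild type with LPS or replicate 1 labelled knockout with LPS 0 were lower with LPS. With LPS against PBS, Apobr, a receptor for apolipoprotein B, rose in RAW264.7 wild type from 25.4 to 60.8 FPKM (1.26 ± 0.06, limma adjusted p = 3.04e-07) and in libraries labelled knockout from 18.3 to 61.8 (1.75). Angptl4 fell from 3.58 to 0.357 FPKM and from 2.63 to 0.16, and Lrp8, a receptor for apolipoprotein E, fell by 1.42 and 1.62. In all, 1 rose and 4 fell in wild type and 1 rose and 5 fell in libraries labelled knockout (list medians -0.58 and -0.71), or 1 and 3 in each with median-ratio scaling (-0.36 and -0.47).

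Leaving out a library moved these counts to 1 higher and 3 lower in RAW264.7 wild type (replicate 1 with PBS or with LPS), and to 1 and 4 in libraries labelled knockout (any of the 6). In BMDMs 0 rose and 6 fell in both genotypes (list medians -1.08 and -0.97). With median-ratio scaling 1 rose and 3 fell in both, with list medians of -0.32 in wild type and -0.32 in knockout. Lrp1, a large endocytic receptor, fell from 182 to 49.9 FPKM in wild type (-1.89 ± 0.12; -1.08 with median-ratio scaling) and by 1.51 in knockout. Between BMDM genotypes limma called 0 with PBS, with LPS and in the interaction, with 4, 4 and 2 at an unadjusted p under 0.05, 0 by edgeR and DESeq2, and list medians of 0.06, 0.18 and 0.11, but 1 higher with LPS without replicate 3 of wild type with LPS. In the RAW264.7 interaction limma called 0 (1 at an unadjusted p under 0.05, 0 by edgeR and DESeq2, list median -0.14), but 1 lower without replicate 1 labelled knockout with PBS.

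Cholesterol synthesis genes under SREBP2 (Srebf2, Insig1, Hmgcs1, Idi1, Sqle, Lss and Dhcr7) were higher in BMDM knockout with LPS in 4 of 7 (Lss, Sqle, Hmgcs1 and Idi1), with 0 lower, where 3.23% of all genes tested were called higher and 1.53% lower. Lss, the lanosterol synthase, averaged 2.03 ± 0.163 FPKM against 0.893 ± 0.117 in wild type (1.10 ± 0.09, limma adjusted p = 7.39e-05). Sqle, the squalene epoxidase, averaged 14.4 ± 0.118 FPKM against 7.03 ± 0.372 (1.03 ± 0.05, 6.25e-06), and Hmgcs1, an early enzyme, 94.7 ± 1.59 against 54.9 ± 1.08 (0.78 ± 0.04, 1.08e-05). The list median was 0.69. With median-ratio scaling, edgeR or DESeq2 3 were called, and 5 without replicate 3 of wild type with LPS or replicate 3 of knockout with LPS. Interactions were called for 3, all higher (Lss 0.92, Sqle 0.82 and Hmgcs1 0.61), with a list median of 0.37, and for 2 with median-ratio scaling. Of all genes tested, 1.91% had an interaction called higher and 1.02% lower. With PBS limma called 0 between BMDM genotypes, with 4 at an unadjusted p under 0.05, 0 by edgeR and DESeq2, and a list median of 0.19. In BMDMs, LPS against PBS moved the list both ways, with 2 higher and 3 lower in wild type and 3 and 1 in knockout (list medians -0.25 and 0.05), or 3 and 1 in wild type and 5 and 1 in knockout with median-ratio scaling, which turned the wild-type median to 0.55. The knockout median was then 0.72. Dhcr7, the last enzyme of one branch, fell from 4.77 to 0.85 FPKM in wild type (-2.37; -1.61 with median-ratio scaling), and Hmgcs1 rose from 37.9 to 94.7 in knockout (1.32 ± 0.04; 2.01).

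RAW264.7 libraries labelled knockout showed no called gene of this list against wild type. limma called 0 with PBS, with LPS and in the interaction, with 5, 2 and 3 at an unadjusted p under 0.05, 0 by edgeR and DESeq2 in each, and list medians of -0.25, 0.04 and 0.30. With LPS against PBS 2 fell (Dhcr7 and Sqle) and 0 rose in RAW264.7 wild type and in libraries labelled knockout (list medians -0.30 and 0.14). Dhcr7 fell from 15.8 to 2.85 FPKM in wild type (-2.43) and from 13.3 to 2.21 in libraries labelled knockout (-2.54). With median-ratio scaling 1 fell in wild type and 1 fell and 1 rose in libraries labelled knockout, with medians of -0.06 and 0.41.

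**Figure D4:**
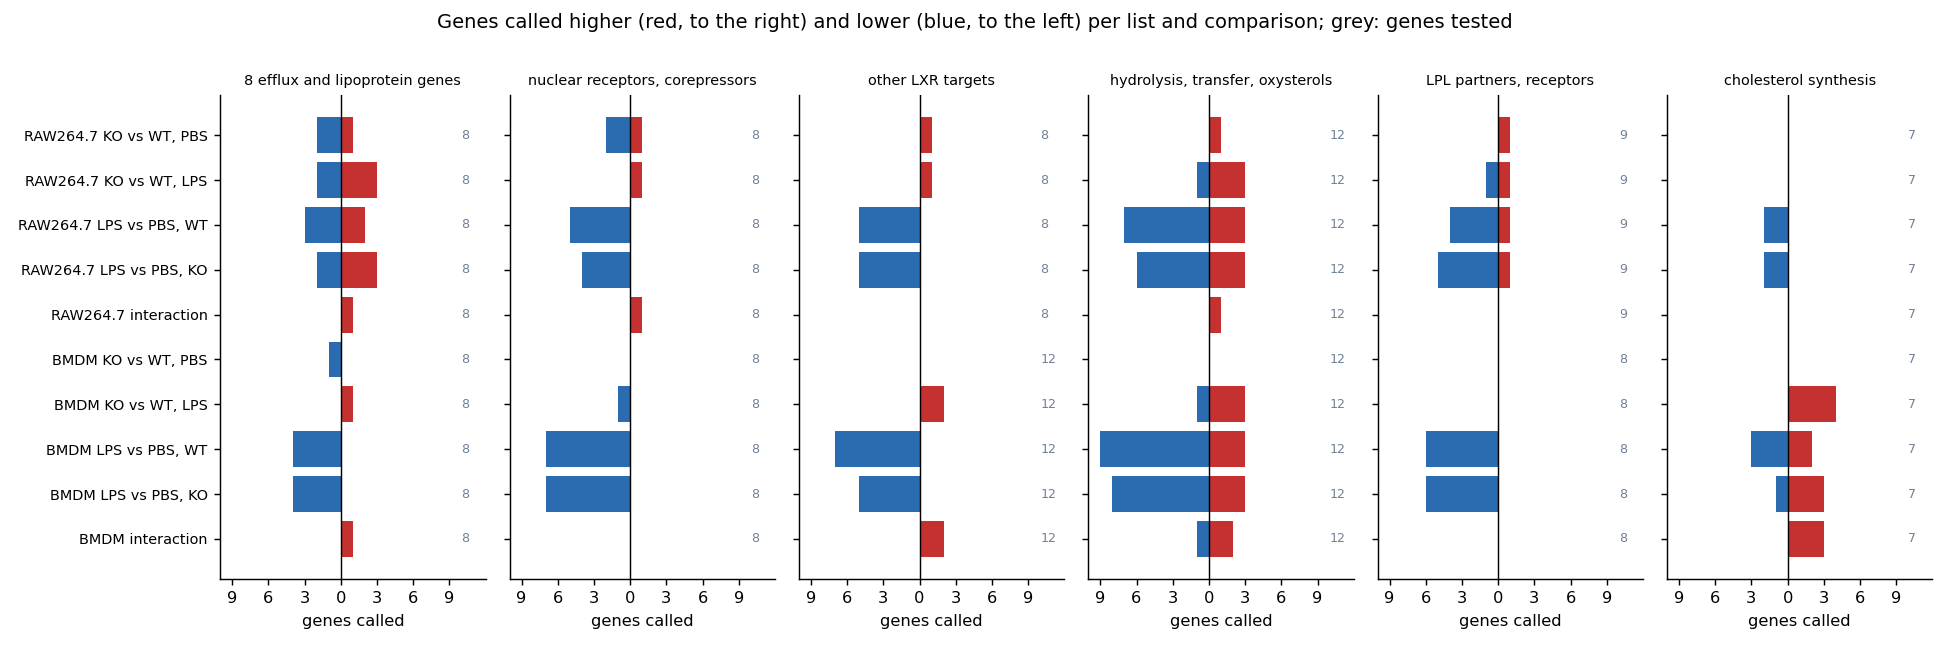
Number of genes called in the 8 members and the 5 pathway lists for each comparison, red bars to the right for higher and blue bars to the left for lower on FPKM, with the number of genes tested in grey and KO in RAW264.7 standing for libraries labelled knockout. Receptors and corepressors show 7 of 8 genes lower with LPS in both BMDM genotypes (5 and 6 with median-ratio scaling), and the SREBP2 list 4 of 7 higher in BMDM knockout with LPS (3 with median-ratio scaling).

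Genes whose pattern over the 8 group means lay closest to each member were sought among 10356 genes, by the root mean square difference of log2(FPKM + 0.1) after centring each gene on its mean within a cell type. Timm17a (0.0993) and Rbpj (0.102) lay closest to Nr1h3, Tpt1 (0.0693) and Dpp7 (0.0808) to Apoe, and Bbs10 (0.0866) and 9430091E24Rik (0.101) to Mylip. Bcorl1 (0.105) and Nsmf (0.115) lay closest to Lpl, Msrb1 (0.113) and Ptms (0.133) to Pltp, Lpin2 (0.157) and Twsg1 (0.202) to Abcg1, and Fcf1 (0.163) and Cd74 (0.166) to Npc2. Abca1 had no gene as close, with Stap1 at 0.314 and Egr2 at 0.349. None of the members was among the 2 nearest genes of another.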

How the data were processed

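The count and FPKM tables, 1 per cell type, were used as deposited by the authors. The submitters' processing notes name the build mm10. The sources used here name neither aligner nor counting program. Deposited counts were assigned per gene, and deposited FPKM was recomputed from counts, gene length and library total to within 0.005. Of the tables' annotation columns, symbols chose the genes, lengths served to recompute FPKM, and positions were only compared with GENCODE. Differences were fitted with limma 3.58.1 in R 4.3.3 on log2(FPKM + 0.1), per cell type over 12 libraries as 4 group means, with default moderation, 2-sided tests and Benjamini-Hochberg adjustment (adjusted p under 0.05, fold of at least 1.5). edgeR 4.0.16 and DESeq2 1.42.0 were run on counts. The programs were first tried on simulated data. Members and lists were chosen with earlier results of these data known, and some genes of the planned lists are not reported here, so list counts and sums leave them out. Named list genes are the 3 called genes with the largest absolute log2 fold change. Other named list genes were chosen after their values were seen.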

Additional observations from a re-analysis of the deposited data

Results flagged for a closer look

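Some responses to LPS differed between wild type and libraries labelled knockout, or values pointed opposite ways in the 2 cell types. By the interaction test, the response to LPS differed with the knockout label in RAW264.7 for Lpl (0.97). The test also called Pparg (0.72) and Ch25h (2.77), but both calls were lost without single libraries, and neither edgeR nor DESeq2 called Ch25h. Pparg and Ch25h were at 0 in whole groups, so their fitted values depend on the pseudocount and are no bound. Pparg lay near 0 in every RAW264.7 group, and its value does not show that its response to LPS differed. In BMDMs the interaction test called Abca1 (0.73), Fasn (0.89), Scd2 (0.78), Stard4 (0.78), Gramd1b (0.76), Cyp27a1 (-0.72), Lss (0.92), Sqle (0.82) and Hmgcs1 (0.61). Of all genes tested, it called 1.91% higher and 1.02% lower in BMDMs, and 0.905% and 1.04% in RAW264.7. In the SREBP2 list, which holds Lss, Sqle and Hmgcs1, the 3 calls became 2 with median-ratio scaling, and edgeR and DESeq2 each called 2.

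For the next values, every library of the first group lay on one side of the second group in RAW264.7 and on the opposite side in BMDMs, and the difference between cell types was not tested. For libraries labelled knockout against wild type with PBS, Abca1 stood at 1.33 in RAW264.7 and -0.0431 in BMDMs, and Abcg1 at 0.25 and -0.32. With LPS, Mylip stood at 0.86 and -0.31. For LPS against PBS in wild type, Abca1 stood at 2.37 and -1.56, Abcg1 at -1.72 and 0.33, Nr1h3 at 0.32 and -0.14 and Lpl at 0.61 and -0.92. For LPS against PBS in libraries labelled knockout, Abca1 stood at 2.37 and -0.83, Abcg1 at -1.82 and 0.35, and Lpl at 1.58 and -0.65. With median-ratio scaling Nr1h3 in wild-type BMDMs turned to 0.65 and Lpl in BMDM knockout to 0.05, so these 2 pairs no longer pointed opposite ways.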

How the results depend on the processing

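The 80 log2 fold changes of members were fitted again under other settings and without single libraries, 1440 values in all. Of these 1340 led to the same call, 46 were weaker, 45 stronger and 9 reversed, and 37 had the other sign with neither value called. Of 30 member calls 17 were kept under every alternative and 13 were lost in at least 1. The cause was not tested.

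The 9 reversed values were found with median-ratio scaling, edgeR and DESeq2. For BMDM LPS against PBS in wild type, Nr1h3 stood at 0.65 with median-ratio scaling, 0.63 with edgeR and 0.66 with DESeq2, against -0.14, and Pltp at 0.123, 0.0919 and 0.124, against -0.68. For BMDM LPS against PBS in knockout, Lpl stood at 0.0467 with median-ratio scaling, 0.0242 with edgeR and 0.0466 with DESeq2, against -0.65.

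The number of members called for RAW264.7 libraries labelled knockout against wild type with PBS went from 3 to 1 where only the groups compared were fitted, and ranged from 1 to 4 without single libraries (1 without RAW264.7 WT PBS replicate 1, 4 without RAW264.7 KO PBS replicate 1). With adjusted p alone and no fold threshold, members called went from 1 to 4 for BMDM knockout against wild type with PBS, from 1 to 8 for BMDM knockout against wild type with LPS, from 4 to 8 for BMDM LPS against PBS in knockout and from 1 to 3 for the BMDM genotype by LPS interaction. Without single libraries, members called ranged from 0 to 1 for BMDM knockout against wild type with LPS, where 1 was called with all libraries and 0 without BMDM WT LPS replicate 1. They ranged from 1 to 2 for the BMDM genotype by LPS interaction, where 1 was called with all libraries and 2 without BMDM KO PBS replicate 1.

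Over the genome, the genes called, RAW264.7 libraries labelled knockout against wild type with PBS, numbered 2287, against 997 where only the groups compared were fitted, 1474 with pseudocount 1, 5523 without RAW264.7 KO PBS replicate 1, 1294 without RAW264.7 KO PBS replicate 2, 1288 without RAW264.7 KO PBS replicate 3, 1364 without RAW264.7 WT PBS replicate 1, 1426 without RAW264.7 WT PBS replicate 2 and 1384 without RAW264.7 WT PBS replicate 3. With LPS they numbered 4635, against 3054 with a pseudocount of 1. The RAW264.7 genotype by LPS interaction called 521 genes, against 339 on TPM and 904 without RAW264.7 KO PBS replicate 1. BMDM knockout against wild type called 490 genes with PBS, against 256 with a pseudocount of 1 and 1116 with adjusted p alone, and 1285 with LPS, against 439 and 4804. The BMDM genotype by LPS interaction called 789 genes, against 402 with a pseudocount of 1 and 1762 with adjusted p alone.

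Nothing in the labels pairs replicates of equal number. With replicate number as a block, 80 of 80 member values kept their call. Correlations of residuals between libraries of equal number exceeded 0.1 in 0 of 18 pairs in each cell type, with a range of -0.04 to 0.08 in RAW264.7 and of -0.06 to 0.07 in BMDMs.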
